A study of Mus musculus with 9 samples.

Results

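The keratins Krt20, Krt8, Krt18, Krt7 and Krt19 were followed in kidney nuclei of mice with and without ischemia-reperfusion injury (IRI). They were taken by symbol, and all 5 were found among the 16939 genes listed in both deposited UMI tables. A UMI is a molecular tag that counts 1 captured RNA molecule. The series holds single-nucleus RNA libraries of 9 male mice aged 11 to 19 weeks. The 4 control mice carried Six2TGC; Rosa26rtTA; pTRE-H2BeGFP, in which doxycycline in the food (625 mg/kg) labels nuclei of the Six2 lineage with GFP, that is the nephron epithelium. Control mouse 1 had no surgery and control mice 2 to 4 had sham surgery. The 5 IRI mice carried Krt20T2A-CE; INTACTnuGFP/+, in which tamoxifen (0.05 mg/g) activates a recombinase made from the Krt20 locus and so places GFP in the nuclei of cells that express Krt20 and of their descendants. Both renal pedicles of these mice were clamped for 18 min, and kidneys were taken at day 7 (2 mice) or day 28 (3 mice). Nuclei of both lines were sorted for Hoechst and GFP. The labels do not give the day of tamoxifen. Because reporter line, the Krt20 allele, sort gate and injury changed together, their parts in any difference between IRI and control cannot be told apart. The question asked of the traced nuclei was how much Krt20 they still contained.

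Keratins are the intermediate filaments of epithelia. A filament pairs a type I keratin (Krt18, Krt19 or Krt20) with a type II keratin (Krt7 or Krt8). In simple epithelia Krt8 and Krt18 are the basic pair, Krt7 and Krt19 are known from ducts, collecting duct and urothelium, and Krt20 is known from intestinal and umbrella cells. Uninjured proximal tubule cells contain little keratin, and keratins are known to rise in them after injury.

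Krt20 lies on chromosome 11 (GRCm38, the mm10 assembly, from 99428403 to 99438150, minus strand), as does Krt19 (from 100140810 to 100148665, minus strand). The other members lie on chromosome 15: Krt8 from 101996698 to 102004482 on the minus strand, Krt18 from 102028180 to 102032027 on the plus strand and Krt7 from 101411043 to 101430313 on the plus strand. Krt8 overlaps the lincRNA Gm36026 and Krt7 overlaps the antisense gene Gm671. Whether the counting kept the strand is not stated, so reads of these overlapping genes may not be separated, and the annotation also lists 1 pseudogene of Krt8 (Krt8-ps). The 250 bases upstream of the annotated start (RefSeq, GRCm38.p6, read on the strand of the gene) are printed for 4 members. RefSeq starts can differ from the ends of the gene spans above. The windows are shown because Krt20, Krt8 and Krt18 were each called higher at both days below, while Krt7 was not called. Capitals mark matches, on either strand, to 4 motifs that were searched for. Klf factors bind the core CACCC. Sp factors bind the sequence GGGCGG. The basal transcription machinery binds TATAAA, and AP-1 dimers bind TGANTCA. The windows are chr11:99438154-99438403, chr15:102004343-102004592, chr15:102027966-102028215 and chr15:101412153-101412402, in the order of the lines.
Krt20: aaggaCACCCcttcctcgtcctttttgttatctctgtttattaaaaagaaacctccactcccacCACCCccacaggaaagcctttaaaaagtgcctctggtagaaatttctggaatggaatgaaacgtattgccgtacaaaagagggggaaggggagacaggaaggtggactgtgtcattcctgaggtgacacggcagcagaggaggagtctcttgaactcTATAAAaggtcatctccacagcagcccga
Krt8: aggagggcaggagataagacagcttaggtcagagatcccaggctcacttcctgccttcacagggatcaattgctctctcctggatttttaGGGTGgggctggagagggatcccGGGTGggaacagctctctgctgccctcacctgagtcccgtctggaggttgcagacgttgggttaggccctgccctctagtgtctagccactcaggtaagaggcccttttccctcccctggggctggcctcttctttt
Krt18: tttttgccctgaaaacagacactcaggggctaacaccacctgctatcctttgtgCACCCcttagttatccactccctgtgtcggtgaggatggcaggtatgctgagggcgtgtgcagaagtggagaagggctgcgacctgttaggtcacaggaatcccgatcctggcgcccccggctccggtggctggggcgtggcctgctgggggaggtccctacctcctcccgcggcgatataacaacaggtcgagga
Krt7: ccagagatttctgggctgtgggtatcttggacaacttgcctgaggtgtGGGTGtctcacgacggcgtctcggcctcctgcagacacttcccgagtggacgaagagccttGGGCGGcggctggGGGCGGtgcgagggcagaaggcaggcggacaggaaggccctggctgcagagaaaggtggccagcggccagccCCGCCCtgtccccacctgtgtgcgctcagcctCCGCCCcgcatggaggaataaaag
Krt20 had a TATAAA match 29 bases before the start, and the other 3 windows had none. TATAAA was present in 12.4% of the 32851 upstream windows of the same length. Krt7 had 4 matches to GGGCGG, which was found in 32.7% of all windows, and the other 3 genes had none. CACCC matched 2 times in Krt20, 2 times in Krt8, 1 time in Krt18 and 1 time in Krt7, and was found in 52.0% of all windows. TGANTCA was found in none of the 4 and in 6.75% of all windows.

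The tables held 13116 control and 14622 IRI nuclei with 66996218 UMIs. Median depth was 668 to 1938 UMIs per nucleus in the controls and 1185 to 4174 in the IRI libraries, and control mouse 4 was the shallowest. Barcodes of the v2 kit were found in the controls and in day 28 mouse 1, and those of v3 in the other 4 libraries. Between 3 and 66 barcodes of a library recurred in another. Cell classes were rebuilt from marker genes without any keratin. They gave 10789 proximal tubule-like (PT-like) nuclei from controls and 11812 from IRI mice, in 23 clusters. In 13 of these clusters markers of injured proximal tubule outweighed those of uninjured proximal tubule. These are called injured-state, and they held 10832 of the IRI but only 52 of the control PT-like nuclei. Levels are given as CPM, counts per 1000000 UMIs of the summed nuclei.

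Krt20 was low in the PT-like nuclei of the controls and present in those of every IRI mouse. The controls had 6.33, 0.69, 0.70 and 2.56 CPM (31, 3, 6 and 4 UMIs). The day 7 mice had 25.7 and 19.1 CPM (311 and 136 UMIs), and the day 28 mice had 22.9, 23.3 and 15.7 CPM (41, 237 and 77 UMIs). All IRI libraries were above all controls, and the ranges of both days overlapped. Means were 2.57 ± 2.66 CPM (SD, n = 4) in controls, 22.4 ± 4.67 (SD, n = 2) at day 7 and 20.6 ± 4.24 (SD, n = 3) at day 28. In edgeR's quasi-likelihood test, with Benjamini-Hochberg adjustment over 14211 genes, Krt20 was higher at day 7 by 2.94 ± 0.59 on the log2 scale (± SE throughout, adjusted p = 0.00156). It was higher at day 28 by 2.79 ± 0.57 (adjusted p = 0.00176). These tests also called 51% of all genes at day 7 (26.2% higher, 24.8% lower) and 45.3% at day 28 (24% higher, 21.2% lower), so a call alone sets a gene apart from few others. Between day 28 and day 7 the log2 change was -0.15 ± 0.57 (adjusted p = 0.908), in a comparison in which 5.73% of genes were called. With the barcode set as a term, the Krt20 changes were 3.08 (adjusted p = 0.0471) and 2.89 (adjusted p = 0.0153, edgeR). Only day 28 holds both barcode sets, so here and below this term rests on day 28 mouse 1 against the other day 28 mice. That mouse also had the highest early creatinine of the IRI mice (0.488 mg/dL, beside 0.208 and 0.228 in the other day 28 mice). Kit and severity of injury therefore cannot be told apart in this term. Within the v2 libraries day 28 mouse 1, the lone IRI library, stood 2.88 above the 4 controls on the log2 scale. The v3 set holds no control, so no value within it can be given. The IRI mice were the only carriers of a modified Krt20 allele, and how its transcript was counted is not given in the sources used here. IRI nuclei were also selected by GFP that depends on Krt20 expression, while control nuclei were not. So the Krt20 tests against control cannot measure injury apart from that selection.

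**Figure D1:**
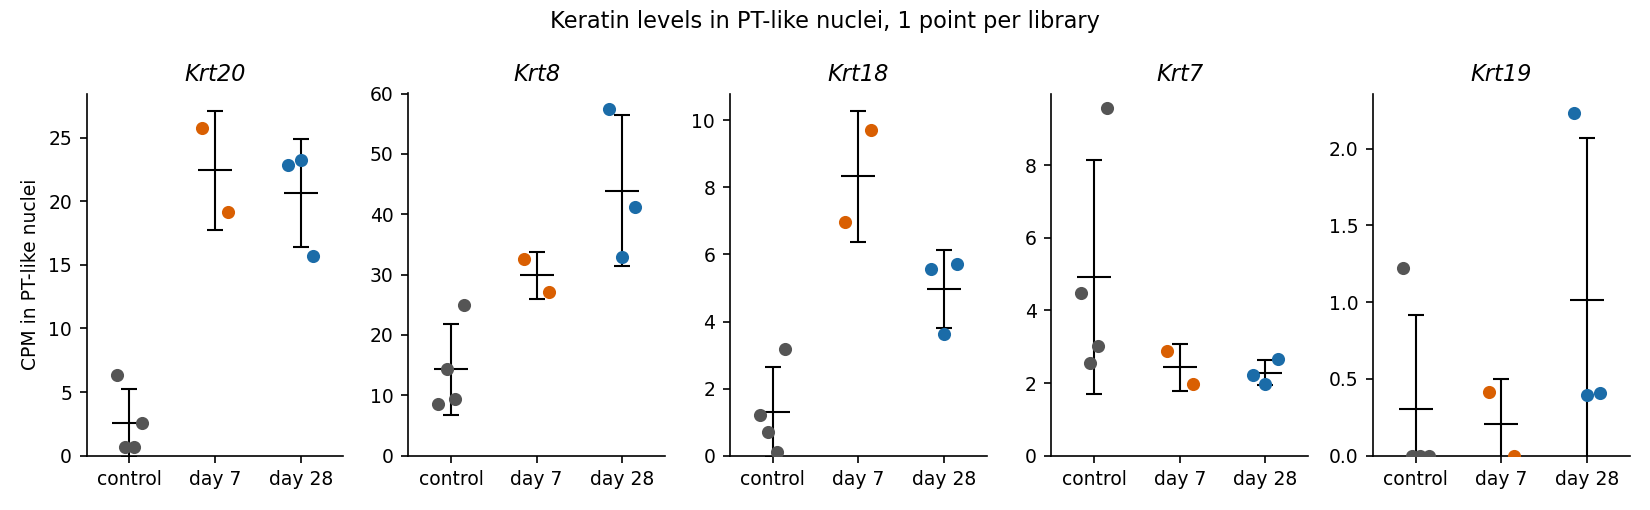
CPM of the 5 keratins in PT-like nuclei, with 1 point per library, the mean (horizontal bar) and the SD (vertical bar, drawn down to 0 where it would go below) of each group. Krt20, Krt8 and Krt18 lie above every control in all 5 IRI libraries, while the Krt7 and Krt19 values overlap between groups.

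Most nuclei sorted from the IRI mice, called traced here, had no Krt20 UMI. The sort also held endothelium-, stroma- and leukocyte-like nuclei (below), and its purity was not tested. Of all 14622 nuclei sorted from the IRI mice, 598 had at least 1, which is 4.09% (exact 95% interval 3.77% to 4.42%; intervals cover counting error only). By mouse, the share of all nuclei was 5.22% and 3.15% at day 7 and 2.04%, 4.66% and 4.51% at day 28. The controls had 0.613%, 0.118%, 0.131% and 0.124%. The 865 Krt20 UMIs of the IRI table were spread thinly: 456 nuclei had 1, 142 nuclei had 2 or more, and the highest had 9. In 14024 of the sorted IRI nuclei the count was 0, and a count of 0 at these depths does not show that the RNA was absent.

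The share followed the depth of the nucleus while the level did not. Among IRI PT-like nuclei with under 1000 UMIs, 1.58% had a Krt20 UMI (20 of 1268, 95% interval 0.966% to 2.43%). That share was 2.59% from 1000 to 2000 UMIs, 4.53% from 2000 to 4000 and 7.62% from 4000 to 8000. At 8000 UMIs and over it reached 14.8% (53 of 357, 95% interval 11.3% to 19.0%). The Krt20 level of the same 5 depth ranges stayed between 21.7 and 24.7 CPM. Control PT-like nuclei had shares from 0.0809% to 0.515% in the 4 ranges below 8000 UMIs, and 0 of 8 nuclei above. Spread over all PT-like nuclei in proportion to depth, the IRI Krt20 UMIs of each library would have reached 761 nuclei in all, 38.5 of them with 2 or more. The counts found were 554 and 133, so Krt20 was more concentrated than an even spread gives.

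**Figure D2:**
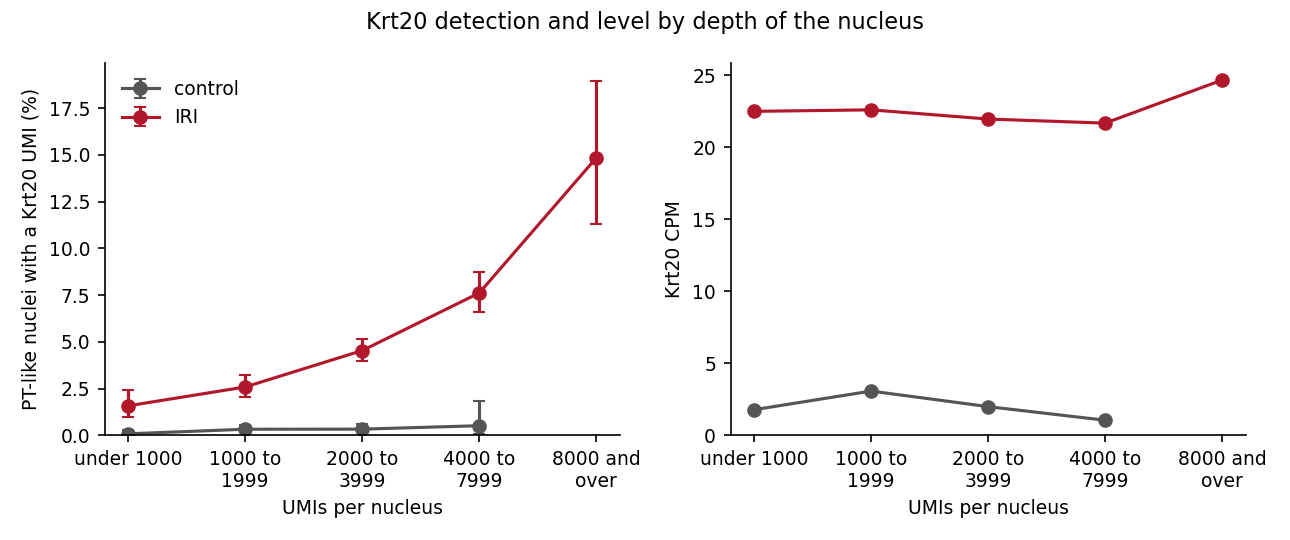
Left, percent of PT-like nuclei with a Krt20 UMI, and right, Krt20 CPM, both by UMIs per nucleus, for control and IRI libraries pooled. Bars on the left are exact 95% binomial intervals, and ranges with under 50 nuclei are left out. The IRI share climbs from 1.58% to 14.8% with depth while the IRI level stays between 21.7 and 24.7 CPM.

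To compare libraries at equal depth, each nucleus was thinned to 1000 UMIs, which left out 2473 control and 1268 IRI PT-like nuclei. The thinned share with a Krt20 UMI was 0.489%, 0.0807%, 0.0749% and 0.514% in the controls, 2.04% and 1.74% at day 7 and 1.87%, 2.11% and 1.48% at day 28. Again no control reached an IRI library. Means were 0.290% ± 0.245 (SD, n = 4) and 1.85% ± 0.252 (SD, n = 5), a difference of 1.56 percentage points. The two-sided exact permutation test gave p = 0.00794, the smallest that 4 against 5 allows, and 0.0397 adjusted over the 5 keratins. For Krt20 this test too sets nuclei selected through the Krt20 locus against nuclei that were not. Without thinning the means were 0.295% and 4.55%. Day 28 minus day 7 was -0.0714 percentage points (exact permutation p = 1, where 3 against 2 cannot go below 0.1). With any 1 library left out, the groups still did not overlap, the difference was 1.49 to 1.65 points and p was the smallest that the reduced design allows (0.0286 for 4 against 4). This floor, adjusted over the 5 keratins, gave an adjusted p of 0.0714 without day 7 mouse 1, day 7 mouse 2, day 28 mouse 1 or day 28 mouse 3, so these values say nothing about stability. Thinned to 2000 UMIs, the groups did not overlap either, at a difference of 2.74 points (exact permutation p = 0.0159, adjusted 0.0794), with only 15 PT-like nuclei of control mouse 4 left.

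Free RNA in droplets can place UMIs in nuclei that do not express a gene, so the share was also read in classes that should lack Krt20. In IRI endothelium-, stroma- and leukocyte-like nuclei together, 9 of 855 (1.05%) had a Krt20 UMI at a median depth of 1141 UMIs. The share in PT-like nuclei was 4.69% at a median of 2654.5. Thinned to 1000 UMIs, the shares were 0.400% and 1.92%. The endothelium-like nuclei alone had 0 of 233, which allows a share of up to 1.29%, and the stroma-like nuclei had 8 of 395 (2.03%). TAL-like (thick ascending limb) nuclei, without the unnamed TAL-scoring cluster 20 described below, had 1 of 396 (0.253%). These shares differ between classes, and the part of free RNA in them was not tested.

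Within the traced PT-like nuclei, Krt20 was uneven. Of the 865 UMIs, 90.3% lay in injured-state PT-like nuclei, which held 75.5% of all IRI UMIs. The 21 UMIs in uninjured-state PT-like nuclei were 2.43% of Krt20 against 7.45% of all UMIs. Injured-state nuclei had 27.4 and 19.7 CPM at day 7 and 30.5, 24.2 and 17.6 CPM at day 28. Uninjured-state nuclei of the same mice had 9.60 and 11.7 CPM at day 7 and 0, 2.23 and 4.38 CPM at day 28. In each of the 5 mice the injured-state value was the higher one. All day 7 UMIs of the uninjured-state nuclei (11 and 6) lay in 1 cluster, 26, with 13.8 and 17.3 CPM in 142 and 99 nuclei. That cluster scored 1.27 for markers of uninjured and 1.01 for those of injured proximal tubule, so it lay near the border between the states. Cluster 24, with 83 and 65 day 7 nuclei, had 0 Krt20 UMIs at day 7. Restricted to uninjured-state nuclei, Krt20 did not pass the test at either day (log2 1.84, adjusted p = 0.121, and -0.14, adjusted p = 0.955, edgeR). That restricted sum held 980 IRI nuclei. It sets different clusters against each other, since clusters 24 and 26 held most uninjured-state nuclei of day 7 and 0 control nuclei.

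Over the 16 PT-like clusters with at least 100 IRI nuclei, Krt20 ranged from 0 to 47.9 CPM. Clusters are numbered by size and led by the genes given, and their differences are a description with no test, since clusters were formed on the same nuclei. The highest levels were in cluster 9 (Cdh13, Cd44, Havcr1; 1002 of its 1015 IRI nuclei from day 7) with 47.9 CPM (exact 95% Poisson interval 41.7 to 54.8) and in cluster 12 (Vcam1, Cd44; 900 of 939 from day 28) with 47.4 CPM (40.6 to 55.1). In these clusters 12.1% and 11.9% of nuclei had a Krt20 UMI. Cluster 13 (Havcr1, Cd44, Actn1) had 33.7 CPM and cluster 11 (Ccl2, Vcam1, Cxcl1) had 32.3 CPM. The intervals of clusters 9 and 12 overlapped, as did those of clusters 13 and 11. Cluster 11 was mostly 1 library, with 804 of its 932 IRI nuclei from day 28 mouse 1. Cluster 23, led by the cycling genes Top2a and Mki67, had 19.99 CPM (13.1 to 29.3), from 29.3 CPM in day 7 mouse 1 (20 of 26 UMIs) and 9.38 CPM in day 7 mouse 2, and 9.69 CPM without day 7 mouse 1. The lowest levels were in the uninjured-state clusters 24 (0.79 CPM) and 8 (0 CPM). The lowest injured-state clusters were 10 (5.19 CPM), 4 (3.50 CPM) and 28 (2.5 CPM, from 3 UMIs). In that order their injured proximal tubule scores were 0.88, 0.99 and 0.61, and their uninjured scores -0.21, 0.47 and 0.53. Clusters 9 and 12 scored 2.46 and 2.34 for injured proximal tubule. Cluster 4 had 1615 IRI nuclei with Havcr1 at 499 CPM, beside a mean of 602 CPM over the 16 clusters. The mean of Krt20 over these clusters was 18.5 CPM.

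**Figure D3:**
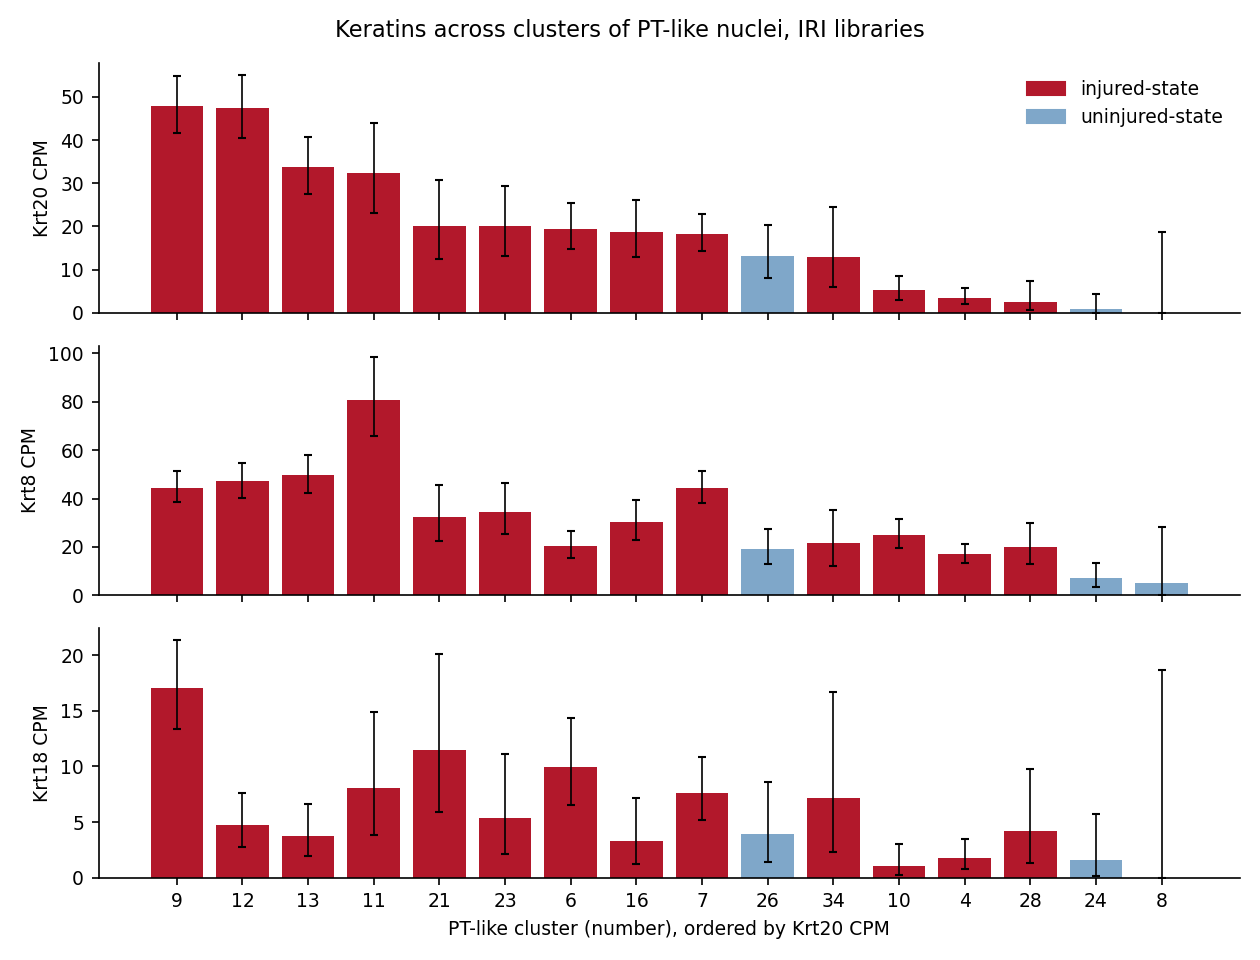
CPM of Krt20, Krt8 and Krt18 in IRI nuclei of the 16 PT-like clusters with at least 100 such nuclei, ordered by Krt20, with exact 95% Poisson intervals of the pooled counts. Clusters 9 and 12 lead for Krt20 at 47.9 and 47.4 CPM, cluster 11 leads for Krt8 at 80.9 CPM and cluster 9 for Krt18 at 17.03 CPM.

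Control Krt20 was also uneven. Control mouse 1 held 35 of the 48 control UMIs. Of these, 23 were in 12 nuclei of cluster 17, an uninjured-state cluster in which Cxcl10 was among the leading genes. That cluster held 208 nuclei of control mouse 1, 108 of control mouse 2, 155 of control mouse 3 and 29 of control mouse 4. The others had 3, 2 and 2 Krt20 UMIs in it. Without control mouse 1 the log2 change of Krt20 was 4.17 at day 7 and 4.10 at day 28. Without cluster 17, an alternative added after seeing the data, it was 4.53 and 4.39, and the calls of Krt20, Krt8 and Krt18 at both days held.

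Krt8, the type II partner of Krt18, was higher in PT-like nuclei after injury. The controls had 8.58, 14.4, 9.45 and 24.9 CPM, the day 7 mice 32.6 and 27.2 CPM and the day 28 mice 57.5, 33.0 and 41.3 CPM. No control reached the lowest IRI library. The log2 change was 0.93 ± 0.33 at day 7 (adjusted p = 0.0337, edgeR) and 1.43 ± 0.31 at day 28 (adjusted p = 0.00243). The day 7 call was lost without any 1 of control mice 1, 2 and 3 or of the day 7 mice (log2 0.70 to 1.12 over all leave-outs) and with the barcode set as a term (1.51, adjusted p = 0.0696). No such leave-out ended the day 28 call. Day 28 against day 7 was 0.50 ± 0.35 (adjusted p = 0.437). The thinned share of PT-like nuclei with a Krt8 UMI rose from 1.39% ± 0.656 (SD, n = 4) to 3.43% ± 0.810 (SD, n = 5; exact permutation p = 0.0159, adjusted 0.0397). With any 1 library left out the groups did not overlap and p was the smallest allowed, which for 4 against 4 (0.0286) put the adjusted p at up to 0.0714. Thinned to 2000 UMIs, with 15 nuclei of control mouse 4, the groups overlapped and the difference was 1.42 points (exact permutation p = 0.627, adjusted 0.784), and over all nuclei of every class they overlapped too (adjusted exact permutation p = 0.0992).

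Krt18, the type I partner of Krt8, was close to 0 in control PT-like nuclei, with 6, 3, 1 and 5 UMIs (1.23, 0.69, 0.12 and 3.19 CPM). The day 7 mice had 6.95 and 9.71 CPM and the day 28 mice 5.58, 3.63 and 5.72 CPM. All IRI values were above all controls, and both day 7 values were above the 3 day 28 values. The log2 change was 2.90 ± 0.64 at day 7 (adjusted p = 0.00276, edgeR) and 2.12 ± 0.64 at day 28 (adjusted p = 0.0168). Day 28 against day 7 was -0.78 ± 0.59 (adjusted p = 0.476). The calls were lost with the barcode set as a term (3.15, adjusted p = 0.0793, and 2.31, adjusted p = 0.0976), and the day 28 call without day 28 mouse 3 (adjusted p = 0.0539). The thinned share was 0.171% ± 0.197 (SD, n = 4) against 0.605% ± 0.211 (SD, n = 5), with an exact permutation p of 0.0317 and an adjusted 0.0529.

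Krt8 and Krt18 were also followed by state, depth and cluster. In injured-state nuclei Krt8 had 33.9 and 28.2 CPM at day 7 and 72.1, 34.4 and 46.3 CPM at day 28. The uninjured-state nuclei of the same mice had 20.1, 13.7, 13.4, 2.23 and 10.2 CPM, each lower than the injured-state value of its mouse. Their mean was 11.9 ± 6.49 (SD, n = 5), beside 14.3 ± 7.61 (SD, n = 4) in control uninjured-state nuclei, which lie in other clusters than those of day 7, as for Krt20. Krt18 had 6.94 ± 2.33 CPM in injured-state and 3.00 ± 2.29 CPM in uninjured-state nuclei of the IRI mice (SD, n = 5), the second from 9 UMIs. Day 28 mouse 2 was the exception, with 3.59 CPM in injured-state and 4.47 CPM in uninjured-state nuclei. Of the IRI UMIs, 81.3% of Krt8 and 78.8% of Krt18 lay in injured-state PT-like nuclei.

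The share of IRI PT-like nuclei with a Krt8 UMI went from 2.60% under 1000 UMIs to 22.4% at 8000 and over. Pooled over libraries, the Krt8 level was 41.8 CPM under 1000 UMIs and 29.1 CPM at 8000 and over, but the libraries differ in both depth and level. Control mouse 4 and day 28 mouse 1, the shallowest control and the shallowest IRI library, had the highest control and the highest IRI level. Split at the median depth of each library, in a comparison added after seeing the data, the level was lower in the deeper nuclei of all 4 controls and of 3 of the 5 IRI mice. For Krt20 it was lower in 3 of the 4 controls and in 3 of the 5 IRI mice. The part of depth in the Krt8 levels was not tested. Krt8 was found in 958 IRI PT-like nuclei, where a spread by depth would give 1140, and 179 had 2 or more against 82.3. For Krt18 these counts were 211 against 224 and 16 against 3.55.

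By cluster, Krt8 was highest in cluster 11 with 80.9 CPM (65.8 to 98.3). Clusters 13, 12, 7 and 9 followed with 49.7, 47.1, 44.5 and 44.5 CPM, and their intervals overlapped. In cluster 7, Krt20 was 18.2 CPM (14.3 to 22.8), with 64 of 74 UMIs from day 28 mouse 2, and 8.61 CPM without that mouse. Krt18 was highest in cluster 9 with 17.03 CPM (13.4 to 21.3), then in cluster 21 with 11.48 CPM (5.93 to 20.1) and cluster 6 with 9.91 CPM (6.58 to 14.3). Cluster 12, which matched cluster 9 in Krt20, had 4.74 CPM of Krt18 (2.76 to 7.59), and the 2 Krt18 intervals did not overlap. Cluster 12 came mainly from day 28 and cluster 9 from day 7.

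Krt7, a type II keratin of distal nephron and urothelium, was not called in PT-like nuclei. The controls had 4.49, 2.55, 3.03 and 9.58 CPM, and the IRI mice had 2.90, 1.97, 2.23, 1.96 and 2.66 CPM, with overlapping ranges. The log2 change was -1.07 ± 0.53 at day 7 (adjusted p = 0.108, edgeR) and -1.21 ± 0.50 at day 28 (adjusted p = 0.0653). Krt19, the smallest type I keratin, had 6 UMIs in PT-like nuclei of the controls, all from control mouse 1, and 15 in those of the IRI mice. It did not pass the filter on low counts and was not tested there. Control mouse 3 had 0 of 4123 PT-like nuclei with a Krt19 UMI, which allows a share of up to 0.0728%. In all, 4 of the 5 keratins were tested and 3 were called higher at each day, beside 26.2% of all genes at day 7 and 24% at day 28.

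In the other classes the keratins followed a different order. Krt7 levels were higher in distal-like nuclei (distal convoluted, connecting and principal cells) than in PT-like nuclei. Distal-like nuclei had 111 ± 23.6 CPM (SD, n = 4) in controls and 58.0 ± 21.3 (SD, n = 5) after IRI. The distal-like values of single mice overlapped, from 76.3 to 126 CPM in controls and from 28.3 to 82.8 CPM after IRI. Intercalated-like nuclei had 105 ± 83.3 CPM (SD, n = 4) in controls and TAL-like nuclei 50.9 ± 23.2 (SD, n = 4). Distal-like values were above the TAL-like ones, which went from 18.4 to 69.9 CPM, in each of the 4 controls, while intercalated-like values (38.4 to 224 CPM) overlapped both. These differences between classes were not tested. All were above the 4.91 ± 3.22 CPM (SD, n = 4) of control PT-like nuclei. Of all control Krt7 UMIs, 29.1% lay in uninjured-state PT-like nuclei, which held 82.1% of all UMIs. Distal-like nuclei held 15.0% of the control Krt7 UMIs in 1.37% of all UMIs. Urothelium-like nuclei had 132 CPM of Krt7 in control mouse 1 (19 UMIs in 104 nuclei). In day 28 mouse 1 they had 513 CPM (11 UMIs in 22 nuclei).

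Krt19 and Krt18 were highest in the 149 urothelium-like nuclei, led by Psca and Upk1b. These came mostly from control mouse 1 (104 nuclei) and, among the IRI mice, day 28 mouse 1 (22 nuclei). Krt19 had 118 CPM in control mouse 1 (17 UMIs) and 1025 CPM in day 28 mouse 1 (22 UMIs). They held 48.6% of the control and 54.4% of the IRI Krt19 UMIs in 0.634% and 0.188% of all UMIs. Krt18 had 187 CPM in control mouse 1 (27 UMIs), 140 CPM in day 28 mouse 1 (3 UMIs) and 354 CPM in day 28 mouse 3 (10 UMIs in 6 nuclei). Krt20, known from umbrella cells, had 0 UMIs in 111 control and 2 UMIs in 38 IRI urothelium-like nuclei. The naming of this class depended on the clustering seed, and with another seed the urothelium-scoring cluster (125 nuclei) was left unnamed.

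Krt8 UMIs were found in every tubule class. In distal-like nuclei it had 14.7 ± 19.8 CPM (SD, n = 4) in controls and 37.4 ± 6.80 (SD, n = 5) after IRI, from 0 to 41.9 and from 30.5 to 45.7 CPM, which overlap. In stroma-like nuclei of the IRI mice it had 16.2 ± 14.7 CPM (SD, n = 5). Distal-like Krt20 in the IRI mice was 13.1 ± 11.7 CPM (SD, n = 5), from 16 UMIs in 10 of 524 nuclei.

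**Figure D4:**
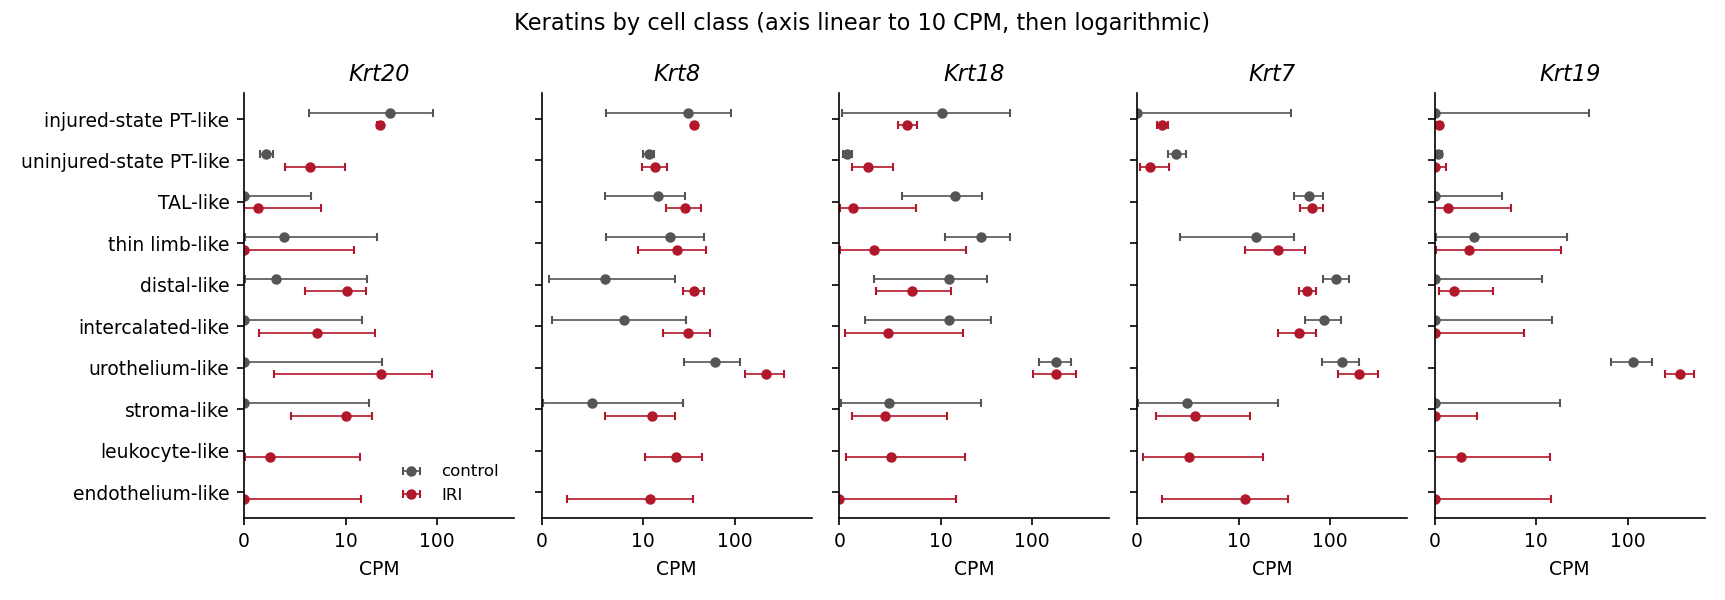
CPM of each keratin by cell class in control and IRI libraries pooled, with exact 95% Poisson intervals, on an axis that is linear up to 10 CPM and logarithmic above. Classes with under 30 nuclei in a group are left out. Krt20 stands out in injured-state PT-like nuclei (23.8 CPM in IRI), Krt7 in distal-, intercalated-, urothelium- and TAL-like nuclei, and Krt19 in urothelium-like nuclei.

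TAL-like nuclei were to serve as a tubule class for comparison, but they were few, with 524 control and 396 IRI nuclei. Clusters 20 and 27 also scored highest for TAL markers (2.75 and 3.22) but were left unnamed. Their next scores were 1.53 for injured and 1.54 for uninjured proximal tubule. Cluster 20 held 156, 138, 33, 43 and 25 nuclei of the IRI mice and 11, 20, 0 and 4 of the controls. Cluster 27 was mostly from controls (114, 44, 84 and 56 nuclei). So the TAL-like class lacks TAL-scoring nuclei with injury markers, while injured-state clusters stay PT-like. Of 2965 genes that passed the filter in TAL-like nuclei, 12.7% were called, and none of the 5 keratins was among those tested. Their TAL-like counts in control and IRI were 0 and 1 UMI of Krt20, 8 and 21 of Krt8, 8 and 1 of Krt18, 33 and 47 of Krt7, and 0 and 1 of Krt19. The difference between the IRI effect in PT-like and in TAL-like nuclei was tested for 12309 genes, of which 7.28% were called. Krt18 passed (adjusted p = 0.00281, edgeR), with 1.31 ± 1.34 and 6.32 ± 2.24 CPM (SD, n = 4 and 5) in PT-like nuclei and 20.3 ± 22.7 and 0.756 ± 1.69 CPM in TAL-like nuclei of control and IRI mice. This rests on 8 and 1 TAL-like UMIs, so no fold change is given. Krt8 (0.46 ± 0.73, adjusted p = 0.830) and Krt7 (-0.98 ± 0.65, adjusted p = 0.473) did not pass, and no usable estimate was obtained for Krt20.

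The injury genes Havcr1 and Vcam1 gave a scale for these changes. Havcr1 (the gene of Kim-1, a receptor of injured tubule) measured 1020 ± 119 CPM (SD, n = 2) at day 7 and 298 ± 75.5 (SD, n = 3) at day 28, against 5.46 ± 2.74 (SD, n = 4) in controls. It fell by 1.80 on the log2 scale from day 7 to day 28 (SE 0.37, adjusted p = 0.0146, edgeR). Vcam1, an adhesion molecule of the unrepaired tubule, had 249.4 ± 19.2 and 625 ± 204 CPM against 6.61 ± 3.66, and its change from day 7 to day 28 was 1.29 ± 0.40 (adjusted p = 0.0874). Whether the Krt20 change between days differed from that of Havcr1 was not tested.

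Traced injured-state nuclei with a Krt20 UMI were set beside those without, in each IRI mouse, with the nuclei without weighted to the same 5 depth ranges. This is a description with no test, and it includes the transporter genes Slc34a1 and Lrp2, which were added outside the rule for named genes. Nuclei were matched on depth and not on cluster, and clusters differed in Krt20. Havcr1, Vcam1, Slc34a1 and Lrp2 also served as markers in naming the clusters. Nuclei with Krt20 numbered 178, 96, 34, 173 and 56. A Krt8 UMI was found in 14.1% ± 3.24 of them and in 10.3% ± 4.07 of the others (SD, n = 5), higher in 4 of 5 mice, with day 28 mouse 3 as the exception. Krt18 was found in 4.54% ± 3.45 and 2.04% ± 1.01, higher in 4 of 5, but the mean difference of 2.5 points rests largely on day 7 mouse 1 (7.08 points) and was 1.35 points without it. Vcam1 was found in 59.2% ± 19.5 and 43.8% ± 13.6, higher in 4 of 5, and Havcr1 in 61.1% ± 27.8 and 52.5% ± 24.2, higher in 4 of 5. Lrp2, the endocytic receptor megalin, was found in 35.9% ± 13.8 and 57.1% ± 15.6, lower in all 5 mice by 18.0 to 24.3 percentage points. Slc34a1, the phosphate transporter of the proximal tubule, was found in 20.01% ± 6.14 and 30.3% ± 5.23, lower in all 5. Krt7 differed by -0.235 points on average, with both signs among the mice. Of 11812 IRI PT-like nuclei, 1502 had a UMI of 1 of the 5 keratins, 144 of 2 and 10 of 3.

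**Figure D5:**
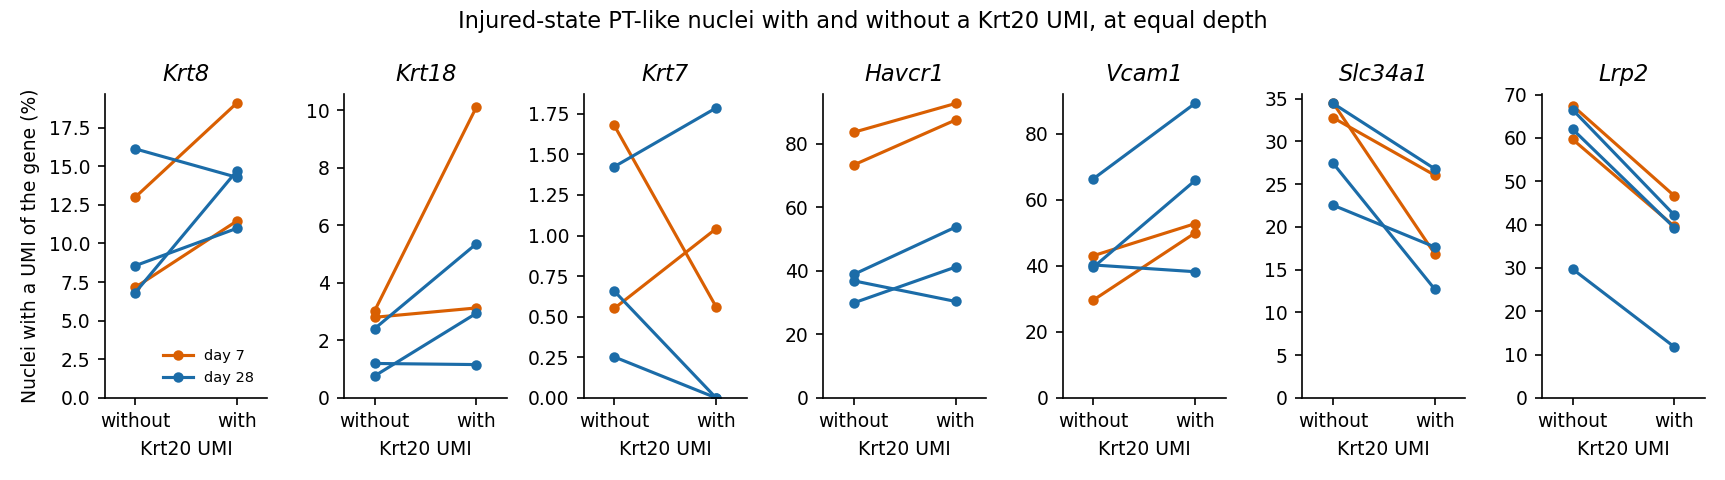
Percent of injured-state PT-like nuclei with a UMI of each gene, in nuclei without (left, weighted to equal depth) and with (right) a Krt20 UMI, with 1 line per IRI mouse. Lrp2 and Slc34a1 are lower with a Krt20 UMI in all 5 mice, and Krt8, Krt18, Havcr1 and Vcam1 are higher in 4 of 5.

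Genes with a pattern like that of each keratin were sought over the same 16 clusters, by Pearson's r of log2(CPM + 10) among 9085 genes with a mean of at least 10 CPM. The points share libraries and depth, and r is a description. For Krt20 the 5 highest were Anxa2 (0.94), Bhlhe40 (0.94), Itgav (0.93), Ctnna1 (0.93) and Map4 (0.93). Anxa2 encodes a membrane-binding annexin, Itgav an integrin subunit, Ctnna1 the junction protein alpha-catenin and Map4 a microtubule-associated protein. For Krt8 they were Tmem171 (0.96), Pdlim7 (0.95), S100a10 (0.95), Tpm4 (0.95) and Ctnna1 (0.94), and for Krt18 Stx1a (0.93), Adgrg6 (0.91), Tshz2 (0.91), Parm1 (0.90) and Fam129b (0.89). Krt20 itself had an r of 0.86 with Krt8, 0.71 with Krt18, 0.71 with Havcr1 and 0.83 with Vcam1. Between Krt8 and Krt18 r was 0.58. Krt7 and Krt19 averaged 1.87 and 0.41 CPM over these clusters, too few UMIs to rank other genes by.

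Other genes of the filament and junction system were counted from lists chosen with earlier results of these data known. Of 17 tested genes for other intermediate filaments and cytolinkers, 8 rose and 3 fell at day 7 and 4 rose and 2 fell at day 28, that is 64.7% and 35.3% called against 51% and 45.3% of all genes. Their median log2 change was 0.87 and -0.02, beside 0.01 and 0.04 over all genes tested. The filament protein nestin (Nes, 5.87 ± 0.39 and 4.96 ± 0.39) and periplakin (Ppl, 4.21 ± 0.35 and 3.71 ± 0.33), a plakin that links keratin to desmosomes, changed most at both days. Vimentin (Vim) rose by 2.14 ± 0.52 at day 7, and Hsp90ab1 fell by 1.76 (SE 0.28) at day 28. Of 14 tested genes of desmosomes, hemidesmosomes and junction plaques, 7 rose and 3 fell at day 7 and 8 rose and 1 fell at day 28, that is 71.4% and 64.3% called against 51% and 45.3% of all genes, with medians of 0.58 and 0.73. Among those that rose at both days were the hemidesmosome genes Itgb4 (5.07 ± 0.67 and 4.27 ± 0.66) and Col17a1 (4.55 ± 0.82 and 4.40 ± 0.80).

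Of 15 tested epithelial transcription factors with sites reported at keratin genes, 8 rose at day 7, and 9 rose and 1 fell at day 28, with medians of 1.04 and 1.46 (53.3% and 66.7% called, beside the same 51% and 45.3%). Klf5 (5.61 ± 0.40 and 4.17 ± 0.40), Klf4 (4.17 ± 0.45 and 4.40 ± 0.43) and the AP-1 subunit Fosl2 (4.01 ± 0.29 and 3.41 ± 0.28) led. From day 7 to day 28 Junb rose by 2.34 ± 0.58 and Klf5 fell by 1.44 (SE 0.33), with adjusted p of 0.0348 and 0.0250 in edgeR's test. These are levels of RNA and say nothing about binding at the windows printed above. Of 5 tested genes of the urothelium list, 1 rose at day 7 (Trp63, 1.28 ± 0.39) and 3 at day 28 (Cldn4 3.03 ± 0.68, Elf3 1.43 ± 0.42 and Trp63 1.20 ± 0.37), and the other 5 listed genes were not tested. Beside these calls of 1 and 3 of 5 stand the 51% and 45.3% of all genes. All 7 parietal epithelium genes were tested, and 6 rose and 1 fell at each day (51% and 45.3% of all genes were called), led by Cd44 (8.52 ± 0.35 and 7.25 ± 0.33), which is also on the injury list, then Cdh6 (5.98 ± 0.28 and 5.92 ± 0.27) and Ncam1 (3.81 ± 0.34 and 3.80 ± 0.32). Cdh6 also served as a marker of injured proximal tubule in naming the clusters. All 10 injury genes rose at both days, where 26.2% and 24% of all genes rose, with medians of 5.73 and 5.74. Several of them also served as markers in naming the clusters. From day 7 to day 28, 1 filament gene (Fam83h, -1.45 ± 0.39) and 2 injury genes (Havcr1 and Cd44, both lower) were called, beside 5.73% of all genes.

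Among the other keratins, 7 genes with a symbol of Krt and a digit were listed. Krt10, a type I keratin of stratified epithelium, was the only 1 that reached 10 CPM in a PT-like sum, at 20.6 CPM in day 28 mouse 1. It had 7.66 to 10.9 CPM in the controls, 0.909 and 0.563 CPM at day 7 and 5.19 and 4.49 CPM in the other day 28 mice. Its log2 change was -3.80 ± 0.67 at day 7 (adjusted p = 0.000671, edgeR), -0.30 ± 0.48 at day 28 (adjusted p = 0.644) and 3.50 ± 0.69 from day 7 to day 28 (adjusted p = 0.0108). All 5 v2 libraries had 7.66 CPM or more and all 4 v3 libraries 5.19 CPM or less. The v2 libraries include all controls, and the part of the kit in the Krt10 level was not tested. With the barcode set as a term the day 7 call was lost (-1.80, adjusted p = 0.0729), the day 28 change was 0.84 (adjusted p = 0.165), and the change from day 7 to day 28 was 2.64 (adjusted p = 0.00301). Within the v3 libraries that last change was 2.71 (adjusted p = 0.0101, edgeR). In fits of v2 and v3 libraries without the barcode term, the change from day 7 to day 28 was not always called. It was lost without day 7 mouse 1 (adjusted p = 0.0701) or day 7 mouse 2 (adjusted p = 0.153), and with only both groups fitted (adjusted p = 0.0804). Without day 28 mouse 1 the day 28 change against control was -1.15 (adjusted p = 0.0135). The rest (Krt12, Krt15, Krt222, Krt23, Krt5 and Krt80) stayed below 4 CPM in PT-like sums.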

How the data were processed

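Nuclei of 9 mice were profiled by droplet single-nucleus RNA sequencing. The authors deposited 2 tables of UMI counts (1 for controls, 1 for IRI), whole numbers per gene and nucleus, not normalized. Per the submitters' processing notes, Cell Ranger with STAR, Seurat and the mm10 build were used, with versions not given in the sources used here, and every listed gene had UMIs in at least 3 nuclei of its table. Doublets were gated at the sorter per the labels' protocols, and no doublet caller was run. Libraries held 1397 to 4564 nuclei and 1833617 to 14641038 UMIs.

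Nuclei were clustered with scanpy 1.11.5 (Python 3.11.15) on 2000 variable genes, 30 components, 20 neighbours and Leiden resolution 2, leaving out keratins. This gave 41 clusters, of which 6 with 1432 nuclei were left unnamed. Names came from marker lists, by a scoring rule that was revised 2 times after marker scores were seen. With another seed 99.2% of nuclei kept their class, but the urothelium-like class was lost. Its cluster there (125 nuclei) scored 4.30 for urothelium and 1.74 for principal cells and was left unnamed. UMI counts were summed per library and class (at least 20 nuclei) and tested with edgeR 4.0.16 in R 4.3.3 (quasi-likelihood, TMM, filterByExpr, Benjamini-Hochberg threshold 0.05), with DESeq2 1.42.0 as an alternative. The SE of an edgeR log2 change was back-calculated as its absolute value divided by the square root of the F statistic. CPM used the 16939 genes of both tables without TMM factors. Shares used nuclei thinned to 1000 UMIs (expected values), with exact permutation tests in scipy 1.17.1. Scripts were tested on simulated data.

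The members and lists were chosen with earlier results of these data known. Named genes were the members, other keratins reaching 10 CPM in a PT-like sum, the 3 largest called changes of each list and the 5 genes most like each member. The values of 1 gene that this rule names are not reported here. Each mouse is 1 replicate, so p-values measure the spread between these mice. Intervals, and limits from a count of 0 (3 counts), cover counting error only. Replicate numbers did not pair the samples. The kit of each library was read from its barcodes, as the labels do not give it.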

Additional observations from a re-analysis of the deposited data

Results flagged for a closer look

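Krt19 in control PT-like nuclei stood apart in control mouse 1, at 1.23 CPM against 0 in the other 3 controls, and in the thinned share of nuclei, at 0.140% against 0%. These 2 values, the ones set apart among 10 control groups looked at, are the same 6 UMIs measured in 2 ways. With 3 of 4 values at 0 any other value is set apart, so the usual chance of about 1 in 20 does not hold here. Control mouse 1 held all 6 UMIs, and the same library held 104 of the 111 control urothelium-like nuclei, the class with the highest Krt19. The part of that class in the value was not tested.

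The IRI effect on Krt18 differed between PT-like and TAL-like nuclei in edgeR's interaction test (adjusted p = 0.00281, from 0.00288 to 0.0258 with single libraries left out). TAL-like nuclei, without the unnamed TAL-scoring cluster 20, held 8 Krt18 UMIs in controls and 1 in IRI mice. The fitted coefficient of 7.68 (log2) therefore depends on the prior count and is no measure of the size of the difference.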

How the results depend on the processing

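Of the alternatives, Krt20 stayed called at both days except in uninjured-state nuclei alone, where log2 changes against control were 1.84 (day 7) and -0.14 (day 28). There Krt8 was 0.066 and -0.85, and -0.92 for day 28 against day 7, and 3056, 1591 and 268 genes were called in the 3 comparisons. With the barcode set as a term, Krt8 was 1.51 at day 7, Krt18 was 3.15 and 2.31, and 1909 and 3067 genes were called. With v2 libraries only, Krt18 was 2.20 at day 28 with 1963 genes called. Over all nuclei, Krt18 was 0.88 and 0.36, and Krt7 was -1.31 at day 7 (adjusted p = 0.0493, edgeR) and 0.90 for day 28 against day 7. For that last comparison Krt20 was 0.071 in injured-state nuclei alone, and 814 genes became 1421 (DESeq2), 1952 (v3 only) or 424 (only both groups compared). Replicate numbers were shared by 7 pairs with correlations of -0.281 to 0.0544, so they share only a number. With a replicate block, Krt20 was 0.28 for day 28 against day 7, with 378 genes called, and TAL-like calls went from 376 to 176 (654 with no filter). Krt10 at day 28 turned to 0.84 with the barcode set as a term and to 0.84 with v2 libraries only, and ranged from -1.15 to 0.080 with single libraries left out. The causes were not tested.

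Thinned to 2000 UMIs the Krt20 share difference was 2.74 points (adjusted exact permutation p = 0.0794), and 1.58 in v2 libraries only, where 1 IRI library against 4 controls cannot go below a permutation p of 0.2. The Krt7 share difference was 0.0265 without thinning, and for day 28 minus day 7 it was -0.183 at 2000 UMIs and -0.0173 without thinning. Leaving out single libraries gave ranges of 2.47 to 4.17 and 2.40 to 4.10 for Krt20, 0.70 to 1.12 and 1.26 to 1.71 for Krt8, 2.29 to 3.39 and 1.58 to 2.68 for Krt18, and -1.45 to -0.79 and -1.41 to -0.86 for Krt7 at day 7 and day 28. Genes called ranged from 4563 to 8182 and from 4645 to 7564. For day 28 against day 7 the ranges were -0.39 to 0.14 (Krt20), 0.30 to 0.70 (Krt8), -0.96 to -0.59 (Krt18), -0.42 to 0.24 (Krt7) and 161 to 980 genes. TAL-like calls ranged from 223 to 539. The Krt20 share difference ranged from 1.49 to 1.65 points against control and from -0.220 to 0.0985 between days, that of Krt19 from -0.00159 to 0.0632 against control and that of Krt7 from -0.0244 to 0.0900 between days. Shallow nuclei limit detection: control mouse 4 had 309 PT-like nuclei of 1000 UMIs or more.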

Other observations

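Krt12, a type I keratin known from corneal epithelium, was listed in the IRI table and not in the control table. It had 48 and 30 UMIs in the day 7 mice and 5, 31 and 12 in the day 28 mice, in 124 nuclei. Of these nuclei, 110 were injured-state PT-like, and 19 (15.3%) also had a Krt20 UMI. Their median depth was 3617.5 UMIs, against 2491 over all IRI nuclei. The Krt12 gene lies 6143 bases from Krt20 on chromosome 11 (GRCm38, from 99415666 to 99422259), on the same strand, and an antisense gene, A830036E02Rik, overlaps it.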
